A study of Mus musculus with 44 samples.

Results

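The products of enteroendocrine cells, the hormone-secreting cells of the gut epithelium, were followed through 10 genes in mouse small intestinal organoids: the granins Chga and Chgb, the prohormone-processing enzyme Cpe, the serotonin enzyme Tph1, the peptide hormones Ghrl, Sct, Cck, Gip and Calcb, and the secreted lectin Reg4. The genes were taken by name from the 2 raw count tables, in which all 10 had a row in the RANKL table (of 21099 genes) and 8 in the RANKL+CSRM617 table (of 9257 genes); Cck and Gip were not analysed in the latter. The organoids came from 1 line, line26, grown from 1 female mouse, labelled wild type and Lgr5GFPDTR/+, so that in every group 1 Lgr5 allele carried GFP and the diphtheria toxin receptor. All organoids had first received 3 days of 3 µM CHIR99021, a GSK3 inhibitor, and 1.5 mM valproic acid, followed by 1 day in medium with EGF, NOGGIN and R-SPONDIN1. They were then given 100 ng/mL RANKL, the cytokine that induces M cells, for 0 to 9 days (3 plates of single cells per day), or RANKL with 40 µM CSRM617 hydrochloride, an inhibitor of the transcription factor ONECUT2, for 0 to 6 days (2 plates per day). Single viable cells were placed in 384-well plates, and CEL-Seq2 with unique molecular identifiers (UMIs) counted the transcript molecules of each. The plate is the replicate throughout. Since every plate came from the same organoid line, p-values measure only how plates vary, and that variation may be technical.

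Enteroendocrine cells are scattered secretory cells that store peptide hormones or serotonin in dense-core granules and release them in response to nutrients and other signals from the gut lumen. Granins help to build the granules, carboxypeptidase E trims prohormones to their mature form within them, and the hormone stored differs between subtypes. Tph1 marks the serotonin-making enterochromaffin subtype and Ghrl the ghrelin-making subtype, whereas Sct is made by several.

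After wells with fewer than 1000 UMIs were set aside, 6558 RANKL cells (26 to 282 per plate) and 1673 RANKL+CSRM617 cells (24 to 223 per plate) remained. The median number of UMIs per cell of a plate ran from 2968 to 6960 in the RANKL arm and from 1800 to 3685 in the RANKL+CSRM617 arm. Replicate 2 of RANKL day 0 and replicates 1 and 3 of RANKL day 4 held 26, 32 and 45 cells, and the plates of RANKL+CSRM617 day 4 held 43 and 24. Enteroendocrine cells were marked by a gate that used none of the 10 genes: 3 or more UMIs over 2 or more of 24 enteroendocrine transcription factors and granule genes, of which 20 had a row among the RANKL counts and 10 among the others. It held 263 of 6558 RANKL cells (4.01%) and 31 of 1673 RANKL+CSRM617 cells (1.85%), shares that are not comparable because the 2 tables hold different numbers of gate genes. In the RANKL arm 30 gated cells had exactly 3 UMIs of the gate genes, and 77 cells lay just outside with 2 UMIs over 2 genes. The mean share of gated cells per RANKL plate started at 1.02% (day 0), stood at 1.24% on day 3 and 6.68% on day 6, and ended at 9.45% (day 8) and 5.23% (day 9).

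In the RANKL arm the 10 genes followed different courses. Cpe was higher on days 6 and 9 than on day 0. Calcb was absent on day 0, peaked on day 2 and was nearly absent again from day 7. Ghrl, Tph1 and Chgb were found in few cells (32, 67 and 67), Reg4 in the most (365), and Cck and Gip were almost undetected. Levels are given as CPM (counts scaled to a fixed library total) of the summed UMIs of a plate, in which fewer cells of a type and less RNA per cell cannot be told apart. Of the 10, Chga, Cck and Gip did not pass the filter on low counts. All 7 that passed differed among the 10 days (edgeR quasi-likelihood F test, Benjamini-Hochberg adjusted p at most 0.00851), where 58.6% of the 10000 genes tested were called. A gene that passed the filter only through a day on which it was high had to differ, so this count is no sign of anything particular to the 7. DESeq2 called 3 of them, Calcb, Cpe and Sct, and 57.9% of genes.

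**Figure D1:**
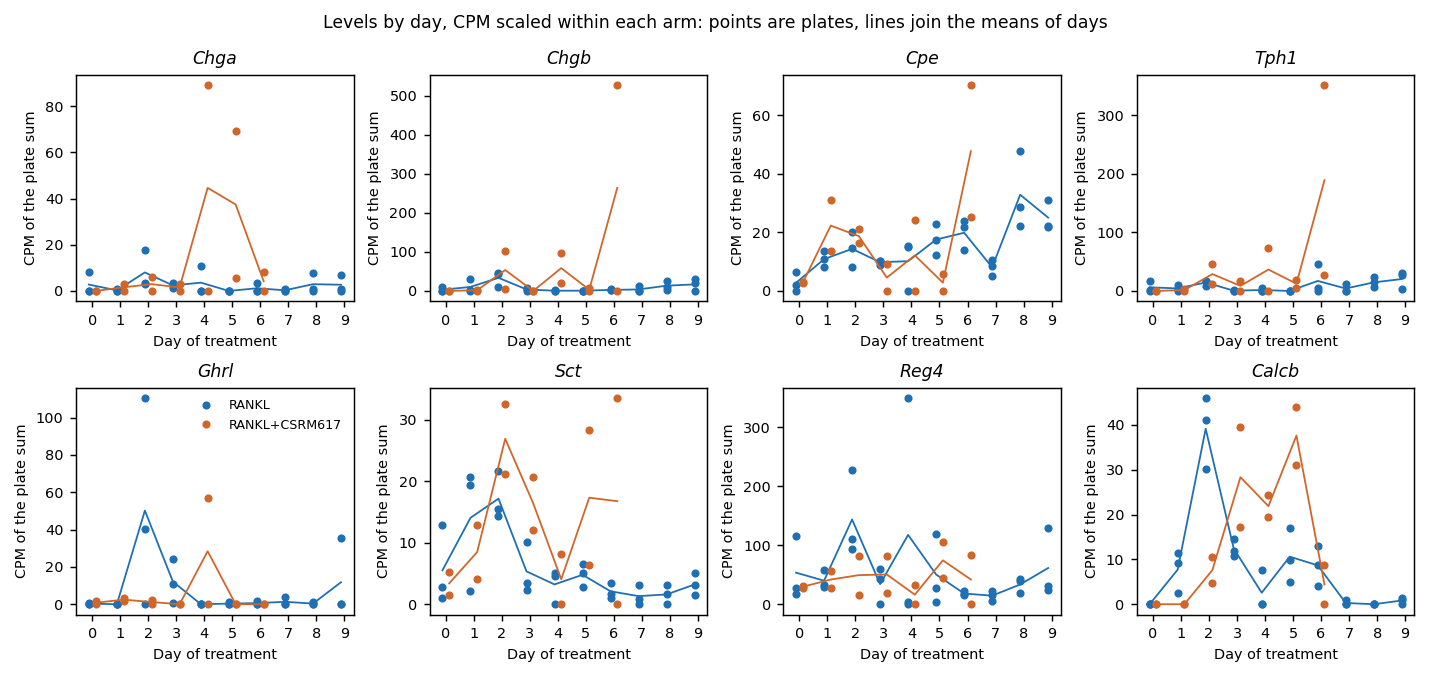
Level of 8 of the genes on each day of treatment, as CPM of the plate sum scaled within each arm (vertical axis, linear, a scale of its own in each panel), against the day (horizontal axis). Each point is 1 plate and the lines join the means of the days; Calcb peaked on day 2 of RANKL at a mean of 39.1 CPM, Cpe lay highest on days 8 and 9 of the RANKL arm and, with the inhibitor, on day 6, and single plates stand far above the others of their day for Ghrl, Tph1, Chgb and Reg4.

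The sequences upstream of the granin and Tph1 genes are shown because Tph1 and Chgb were each among the genes most alike the other across plates, and Chga is the second granin. The 250 bases before each annotated start came from RefSeq (GRCm38.p6), which matched 8 of the 10 genes with 12 windows. TGACG, searched on both strands, was present in windows of 4 genes, Cck, Chga, Chgb and Tph1, and in 17.8% of the 32851 promoter windows of that length. The longer TGACGTCA, which contains TGACG on both strands, was present in Chgb and in 1.55% of windows. The motif was chosen after the letters had been seen, and a match describes these letters only. Capitals mark TGACG, or CGTCA where the match is on the opposite strand, and sequences run 5′ to 3′ on the strand of the gene.
Chga, chr12:102554691-102554940, plus strand, match 44 bases before the start: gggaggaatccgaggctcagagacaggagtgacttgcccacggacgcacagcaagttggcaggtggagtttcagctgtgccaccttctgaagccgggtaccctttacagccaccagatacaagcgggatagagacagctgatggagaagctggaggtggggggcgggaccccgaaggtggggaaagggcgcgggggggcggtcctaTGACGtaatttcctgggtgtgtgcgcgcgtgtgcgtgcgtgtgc
Chgb, chr2:132781559-132781588, plus strand, 30 bases around a match 72 bases before the start: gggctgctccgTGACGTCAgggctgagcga
Tph1, chr7:46667378-46667627, minus strand, matches 248, 47 and 21 bases before the start: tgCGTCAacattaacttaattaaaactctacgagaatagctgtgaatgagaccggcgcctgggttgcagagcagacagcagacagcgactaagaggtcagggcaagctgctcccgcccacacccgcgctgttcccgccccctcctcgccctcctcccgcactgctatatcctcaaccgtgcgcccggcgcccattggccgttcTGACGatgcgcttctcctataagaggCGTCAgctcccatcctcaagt
Tph1, chr7:46672538-46672787, minus strand, upstream of another start, match 36 bases before it: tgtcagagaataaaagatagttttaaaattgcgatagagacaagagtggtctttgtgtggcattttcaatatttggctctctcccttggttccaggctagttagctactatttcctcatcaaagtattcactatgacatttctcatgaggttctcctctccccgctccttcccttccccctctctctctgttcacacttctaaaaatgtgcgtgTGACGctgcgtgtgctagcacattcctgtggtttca
In the GENCODE M21 annotation of GRCm38, Chga spans 102554969 to 102565028 of chromosome 12 (plus strand), Chgb 132781278 to 132795079 of chromosome 2 (plus strand) and Tph1 46644641 to 46672537 of chromosome 7 (minus strand). The Chgb site lies inside exon 1 of Chgb-201 in that annotation.

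Chgb encodes chromogranin B, a granin of the dense-core granule. Its RANKL plates held 10, 0 and 0 UMIs on day 0, 11, 71 and 63 on day 2, 6, 0 and 11 on day 3, 2, 4 and 2 on day 6, 13, 34 and 3 on day 8 and 13, 0 and 31 on day 9. The day 2 plates (9.91, 46.4 and 44.3 CPM) all lay above the highest day 0 plate (9.20 CPM), while days 3, 6, 8 and 9 overlapped day 0. The days differed in edgeR (adjusted p = 0.00330) but not in DESeq2 (adjusted p = 0.157), and none of days 3, 6 and 9, the days tested against day 0, passed: the change to day 9 was 1.93 ± 1.20 on the log2 scale (log2 fold change ± SE; edgeR adjusted p = 0.216). In the RANKL+CSRM617 arm the plates held 0 and 0 UMIs on day 0, 44 and 4 on day 2, 12 and 1 on day 4, and 63 and 0 on day 6.

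Day 6 against day 0 of RANKL+CSRM617 passed for 3 members, Chgb, Cpe and Tph1, all higher, where 4.55% of genes were called higher and 7.51% in either direction. Chgb and Tph1 had no UMI on day 0 and passed the filter on low counts through later plates, so they could only rise. The count is therefore no sign of anything particular to the 3. For Chgb the fitted log2 change was 9.67 ± 1.93 (edgeR adjusted p = 0.00228), a size that depends on the prior count because day 0 held no UMI; with 3 counts taken as the floor for day 0, the level was at least 92.5-fold higher. The groups overlapped, since replicate 2 of day 6 had no Chgb UMI. The call rested on replicate 1, without which no UMI remained on that day (log2 change 0, adjusted p = 1), and DESeq2 gave an adjusted p of 0.153. Over all days of that arm Chgb differed in edgeR (adjusted p = 0.00105) and not in DESeq2 (adjusted p = 0.406).

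Chga encodes chromogranin A, the granin widely used as a marker of enteroendocrine cells. It was sparse, with 86 UMIs in 34 RANKL cells, and its highest RANKL plate held 27 UMIs, replicate 2 of day 2. The RANKL+CSRM617 plates held 11 and 0 UMIs on day 4 and 2 and 11 on day 5, against 0 and 0 on day 0 and 1 and 0 on day 6. Chga differed among the days of that arm in edgeR (adjusted p = 0.0253), a call that was lost without replicate 1 of day 4 (0.136), after cells had been thinned to 1000 UMIs (0.125) and in DESeq2 (0.533). As in the RANKL arm, a gene that passed the filter through its high plates had to differ. In all, 5 of the 6 members tested in that arm differed among its days, where 20.2% of 6499 genes were called; Reg4 was the other (adjusted p = 0.643), and DESeq2 called 2 of the 6 and 18.1% of genes.

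Cpe, which encodes carboxypeptidase E, was the most widely detected of the granule genes in gated cells. The gene lies on the minus strand of chromosome 8, from 64592542 to 64693054. Day 0 plates of the RANKL arm held 7, 0 and 2 UMIs (6.44, 0 and 1.90 CPM). Day 6 plates held 16, 23 and 25 (14.1, 23.8 and 21.8 CPM) and day 9 plates 15, 21 and 31 (22.2, 21.8 and 31.1 CPM). Every plate of days 6 and 9 lay above every day 0 plate. The day 0 mean was 2.78 ± 3.31 CPM (SD, n = 3). Day 6 reached 19.9 ± 5.10 and day 9 reached 25.1 ± 5.24, and the highest mean, 32.9 ± 13.4, was that of day 8.

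Cpe rose by day 6 (log2 change 2.31 ± 0.55, edgeR adjusted p = 0.000945) and by day 9 (2.66 ± 0.54, edgeR adjusted p = 0.000172), and on day 3 the change was 1.31 ± 0.60 (edgeR adjusted p = 0.123). Calcb and Cpe were the members called on day 6, where 18.9% of genes were called higher and 38.3% in either direction. On day 9 Cpe was the member called, where the shares were 18% and 36.4%. The day 6 call was lost after thinning each cell to 1000 UMIs (log2 change 1.59, adjusted p = 0.113). The share of cells with a Cpe UMI stood at 0.730% ± 0.908 for day 0, at 4.53% ± 0.386 for day 6 and at 3.41% ± 0.557 for day 9 (SD over plates, n = 3); thinned cells gave 2.08% for day 6 and 2.47% for day 9. The summed level of the gate genes ran from 23.8 to 61.7 CPM over the day 0 plates, from 251 to 275 over those of day 6 and from 181 to 296 over those of day 9; its part in the Cpe result was not tested.

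With the inhibitor, Cpe plates held 2 and 1 UMIs on day 0, 13 and 17 on day 1, 7 and 18 on day 2, 0 and 3 on day 3 and 3 and 8 on day 6 (25.1 and 70.5 CPM). Both day 6 plates lay above both day 0 plates, from few UMIs: the ratio of the summed counts was 16.2, with a counting interval from 4.27 to 90.2. Cpe rose by day 6 (log2 change 3.88 ± 1.04, edgeR adjusted p = 0.0203). The call was lost without either day 0 plate (adjusted p = 0.113 without replicate 1 and 0.0647 without replicate 2) and without replicate 2 of day 6 (log2 change 2.97, adjusted p = 0.336). Over all days the adjusted p was 0.0445, and leaving out replicate 1 of day 0 or day 3, or replicate 2 of day 0, 1, 2, 5 or 6, took it to between 0.0503 and 0.136. Between the arms Cpe differed by 0.26 on the log2 scale on days 1 to 3 (edgeR adjusted p = 0.708) and by −0.02 ± 0.42 on days 4 to 6 (edgeR adjusted p = 0.987).

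Tph1 encodes tryptophan hydroxylase 1, which makes the first step of serotonin synthesis in enterochromaffin cells. The RANKL plates held 19, 0 and 1 UMIs on day 0, 19, 26 and 13 on day 2, 2, 0 and 0 on day 3, 0, 5 and 53 on day 6, 7, 30 and 14 on day 8 and 18, 3 and 31 on day 9. Day 2 and days 8 and 9 had UMIs on every plate, day 5 on none, and replicate 1 of day 0 lay above most later plates. The days differed in edgeR (adjusted p = 0.00851) but not in DESeq2 (0.0907) or in cells of 2000 or more UMIs (0.0550). None of the 3 days tested against day 0 passed, with changes of −3.85 ± 1.72 on day 3 (edgeR adjusted p = 0.115), 1.03 ± 1.00 on day 6 (0.438) and 1.22 ± 1.01 on day 9 (0.365).

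With the inhibitor, Tph1 plates held 0 and 0 UMIs on day 0, 5 and 39 on day 2, 5 and 0 on day 3, 9 and 0 on day 4, 2 and 3 on day 5 and 42 and 3 on day 6 (352 and 26.4 CPM). Both day 6 plates lay above both day 0 plates. Tph1 rose by day 6 (fitted log2 change 9.19 ± 1.54, edgeR adjusted p = 0.000355); day 0 held no UMI, which put the level at least 66.1-fold higher, with the same floor. Without replicate 1 of day 6 the call was lost (log2 change 6.43, adjusted p = 0.205). In that plate 1 cell of 2100 UMIs held 27 of the 42 Tph1 UMIs and 49 of the 63 Chgb UMIs. Without the cell of most Tph1 UMIs the Tph1 call remained (log2 change 7.90, adjusted p = 0.00338), as did that of Chgb without the cell of most Chgb UMIs (7.54, adjusted p = 0.0398). Over all days Tph1 differed in edgeR (adjusted p = 0.000411) and missed the threshold in DESeq2 (0.0605).

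Tph1 was also the member called higher in the RANKL+CSRM617 arm than in the RANKL arm over days 4 to 6, where 8.68% of genes were called higher and 22.4% in either direction. The arms held 59 Tph1 UMIs in 6 plates with the inhibitor and 61 in 9 plates without. Scaled for library size, the ratio was 8.22 (counting interval 5.65 to 11.9), and the plates overlapped on days 4 and 6 but not on day 5. The log2 difference was 4.61 ± 1.30 (edgeR adjusted p = 0.00917). It was −0.25 in cells of 2000 or more UMIs (adjusted p = 1.000), and leaving out RANKL+CSRM617 replicate 1 of day 4 (1.80, adjusted p = 1.000), replicate 2 of day 5 (4.30, 0.0888) or replicate 1 of day 6 (3.61, 0.0774) ended the call. The median of all genes in this comparison was −0.12. Chga differed by 4.23 ± 1.76 (edgeR adjusted p = 0.0819) and Chgb by 4.79 ± 2.91 (0.255); DESeq2 called 4 members, and 21.9% of genes. Tph1 was also the member whose change from day 0 to days 4 to 6 differed between the arms, where 3.14% of genes were called higher and 6.34% in either direction; its values are given among the additional observations. On day 0 none of the 8 members tested passed (edgeR), while 9.82% of genes did and 2003 genes had an unadjusted p under 0.05; DESeq2 called 844 genes (9.63%). The arms have separate tables and plates, so arm and table cannot be told apart.

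Ghrl encodes the ghrelin precursor and lies on the minus strand of chromosome 6, from 113716119 to 113719880. Its RANKL plates held 1, 0 and 0 UMIs on day 0, 0, 169 and 57 on day 2, 36, 1 and 16 on day 3, and 0, 34 and 0 on day 9. It stood high in replicates 2 and 3 of day 2, replicates 1 and 3 of day 3 and replicate 2 of day 9, and low elsewhere. Of the 323 Ghrl UMIs of the arm, 163 lay in 1 cell of replicate 2 of day 2, which held 3894 UMIs in all, and the 5 highest cells held 90.1%. The days differed in edgeR (adjusted p = 1.73e-05, and 0.00234 without that cell), but not in DESeq2 (0.211). On day 3 the log2 change was 4.50 ± 2.01 (edgeR adjusted p = 0.117), and without the filter on low counts its adjusted p was 2.71e-06. The ratio of the summed counts on day 3, 53 against 1, was 29.1 with a counting interval from 4.99 to 1169.

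With the inhibitor, Ghrl reached 7 UMIs on replicate 1 of day 4 and at most 3 on the other plates. Over days 1 to 3 the arms held 5 UMIs with the inhibitor and 279 without, a ratio of 0.0730 (counting interval 0.0235 to 0.172). Of the 279, 169 lay on replicate 2 of RANKL day 2, without which the ratio was 0.162 (0.0517 to 0.391). Of the RANKL UMIs that remained, 51, 33 and 12 lay in 1 cell each. The intervals count UMIs as independent, so they do not cover how few cells held Ghrl. The edgeR fit gave no standard error for this contrast, and the difference did not pass.

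Sct encodes secretin, a hormone that stimulates bicarbonate secretion. Its gene lies on the minus strand of chromosome 7, from 141278330 to 141279133. The RANKL plates held 3, 2 and 1 UMIs on day 0, 31, 27 and 3 on day 1, 24, 22 and 22 on day 2, 15, 3 and 5 on day 3 and 6 or fewer from day 4. Days 1 and 2 thus held the most UMIs, with 17.2 ± 3.91 CPM (SD, n = 3) on day 2. The 2 UMIs of replicate 2 of day 0, a plate of 26 cells, were 12.8 CPM. That is above replicate 3 of day 1 (2.15 CPM) and below the lowest plate of day 2 (14.4 CPM). The days differed (edgeR adjusted p = 0.000116), while days 3, 6 and 9 against day 0 gave log2 changes of 0.98, −0.32 and 0.32 that did not pass. With the inhibitor the plates held 14 and 18 UMIs on day 2 (32.6 and 21.2 CPM), 10 and 1 on day 5 and 4 and 0 on day 6, where replicate 1 of days 5 and 6 stood at 28.3 and 33.5 CPM. The arms differed by 0.57 on days 1 to 3 (edgeR adjusted p = 0.331) and by 1.97 ± 1.13 on days 4 to 6 (0.221).

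Calcb encodes the precursor of the beta form of calcitonin gene-related peptide, a neuropeptide, and lies on the plus strand of chromosome 7, from 114718643 to 114723365. It has a close paralogue, Calca, not analysed here, and how reads shared by both were counted was not tested. The RANKL plates held 0, 0 and 0 UMIs on day 0, 4, 12 and 16 on day 1, 51, 63 and 43 on day 2 (46.0, 41.2 and 30.3 CPM), 16, 15 and 21 on day 3 (10.9, 11.8 and 14.6 CPM), 0, 5 and 0 on day 4, 18, 9 and 5 on day 5 and 10, 4 and 15 on day 6. From day 7 to day 9 at most 1 UMI was left on any plate. All plates of days 1 to 3, 5 and 6 lay above all day 0 plates.

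Calcb rose by day 3 (fitted log2 change 6.74 ± 1.30, edgeR adjusted p = 0.000212) and by day 6 (6.25 ± 1.42, edgeR adjusted p = 0.000676), and on day 9 the change was 2.90 ± 2.16 (0.311). It was the member called on day 3, where 10.2% of genes were called higher and 20.4% in either direction. As day 0 held no UMI, the fitted sizes depend on the prior count; with the floor of 3 counts the level was at least 9.50-fold higher on day 3 and at least 6.82-fold higher on day 6. After thinning to 1000 UMIs per cell Calcb failed the filter on low counts in these contrasts and was not tested. The share of cells with a Calcb UMI was 0 on day 0, which allows up to 0.624%, 3.13% ± 1.67 on day 1, 12.2% ± 2.95 on day 2, 5.18% ± 0.208 on day 3 and 2.92% ± 1.63 on day 6 (plate SD, n = 3). Thinned cells gave 2.90% for day 2, 0.614% for day 3 and 1.26% for day 6.

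Calcb was not detected in any of the 263 gated RANKL cells (a share of 1.14% at most, from 3 counts), nor in any of the 31 gated cells of the other arm, which allows up to 9.68%. It was found in 95 of 894 cells that met an M cell rule (5 or more UMIs over 3 or more M cell genes and no UMI of the gate genes), 10.6%, and in 67 of 1349 cells that met the same rule for enterocytes, 4.97%. After thinning the shares were 2.13% and 0.964%. Cells of the M cell rule were 13.6% of RANKL cells and 49.0% of the Calcb-positive ones. Gated cells were shallower, with a median of 2679 UMIs against 6106 in M cell rule cells, while goblet rule cells, at a median of 3333.5, held Calcb in 2.31%. These shares pool days on which Calcb differed: 143 of the 263 gated cells came from days 7 to 9, when no M cell, enterocyte, goblet or Paneth rule cell held Calcb either, and 755 of the 894 M cell rule cells came from days 1 to 3. Within days 1 to 3 Calcb was found in 0 of 39 gated cells (up to 7.69%), 10.7% of M cell rule cells, 7.05% of enterocyte rule cells and 4.35% of goblet rule cells (3 of 69). Within days 4 to 6 it was found in 0 of 74 gated cells (up to 4.05%), 10.9% of 128 M cell rule cells and 3.85% of 52 goblet rule cells. The M cell and enterocyte rules share 528 cells, of which 59 held Calcb (11.2%), against 36 of the 366 cells of the M cell rule alone (9.84%) and 8 of the 821 of the enterocyte rule alone (0.974%). At most 8 Calcb UMIs lay in 1 cell. The gate required UMIs of enteroendocrine genes and the M cell rule none, so the classes exclude each other by construction.

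**Figure D2:**
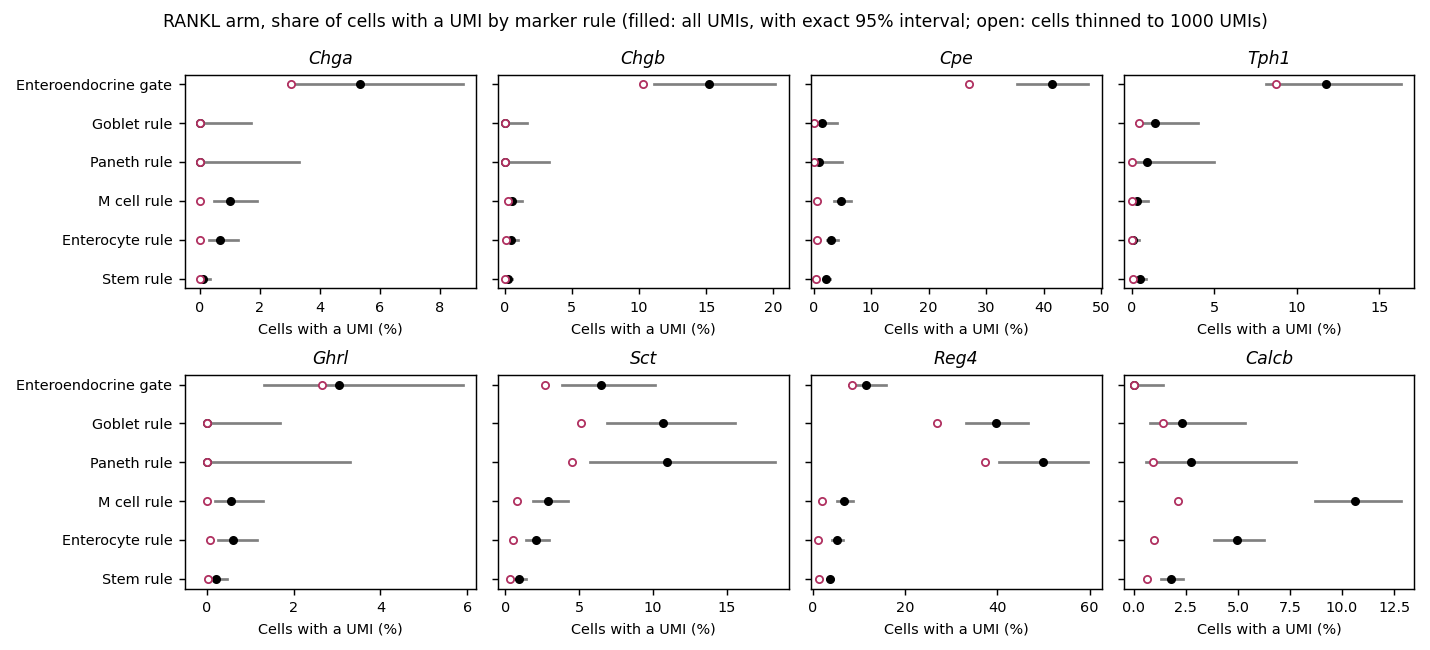
Share of RANKL cells with a UMI of each of 8 genes (horizontal axis, percent) in the enteroendocrine gate and in cells that met the rule of another class (vertical axis); filled points use all UMIs, with exact 95% binomial intervals for counting error, and open points use cells thinned to 1000 UMIs. Cpe, Chgb and Tph1 are highest in the gate (41.4%, 15.2% and 11.8%), Reg4 in Paneth and goblet rule cells (50% and 39.8%), and Calcb in M cell rule cells (10.6%) with none in the gate. All days are pooled, the classes differ in their days, and a cell can meet more than 1 rule.

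The summed level of the 8 M cell genes was high on the days of most Calcb but did not follow it day by day. It ran from 250 to 499 CPM on day 0, with 3 of the 8 genes above 0. It was already 2109 to 2541 on day 1, when Calcb was lower than on day 2, and reached 2471 to 2911 on the plates of day 2 and 1897 to 2541 on those of day 3. Days 4 and 5 were alike, at 574 to 811 and 692 to 790, while 2 of the 3 Calcb plates were at 0 on day 4 and none on day 5. It stood at 468 to 661 on day 6 and at 208 to 259 on days 7 and 8. Of the neuron markers Elavl4 alone had a row; it reached at most 3.16 CPM on any plate and was at 0 on days 0, 1, 3, 4, 7 and 9, and no cell met the neuron rule. The part of these cells in the Calcb result was not tested.

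With the inhibitor, Calcb plates held 0 and 0 UMIs on days 0 and 1, 2 and 9 on day 2, 5 and 13 on day 3, 3 and 1 on day 4, 11 and 7 on day 5 and 0 and 1 on day 6. Calcb rose by day 3 (fitted log2 change 6.47 ± 1.39, edgeR adjusted p = 0.00233; at least 9.93-fold higher), where 10% of genes were called higher and 18% in either direction. Without replicate 2 of day 3 the adjusted p was 0.0527 (log2 change 5.77). On day 6 the change was 3.82 ± 2.37 (edgeR adjusted p = 0.384), on plates whose summed M cell genes stood at 2822 to 3532 CPM.

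Over days 1 to 3 Calcb was lower with the inhibitor (log2 difference −2.07 ± 0.64, edgeR adjusted p = 0.0140). It was the member called, where 15.1% of genes were called lower and 28.6% in either direction. The arms held 29 UMIs in 6 plates with the inhibitor and 241 in 9 plates without. The ratio of the summed counts, scaled for library size, was 0.490 (counting interval 0.321 to 0.722). The fitted size averages the days and depends on the prior count, because no inhibitor plate of day 1 held a UMI. The days did not share a direction. On day 1 both inhibitor plates were at 0 against 2.39, 8.71 and 11 CPM on the scale of both arms. On day 2 they stood at 5.05 and 11.3 against 44.0, 39.3 and 29, and on day 3 at 18.8 and 43.6 against 10.7, 11.5 and 14.3. The RANKL plates were therefore above the inhibitor plates on days 1 and 2 and below them on day 3, with no overlap on any of the 3 days. The call was lost after thinning (−1.47, adjusted p = 0.183) and without RANKL+CSRM617 replicate 1 of day 1 (adjusted p = 0.0965). On days 4 to 6 the difference was 1.10 ± 0.86 (edgeR adjusted p = 0.390).

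**Figure D3:**
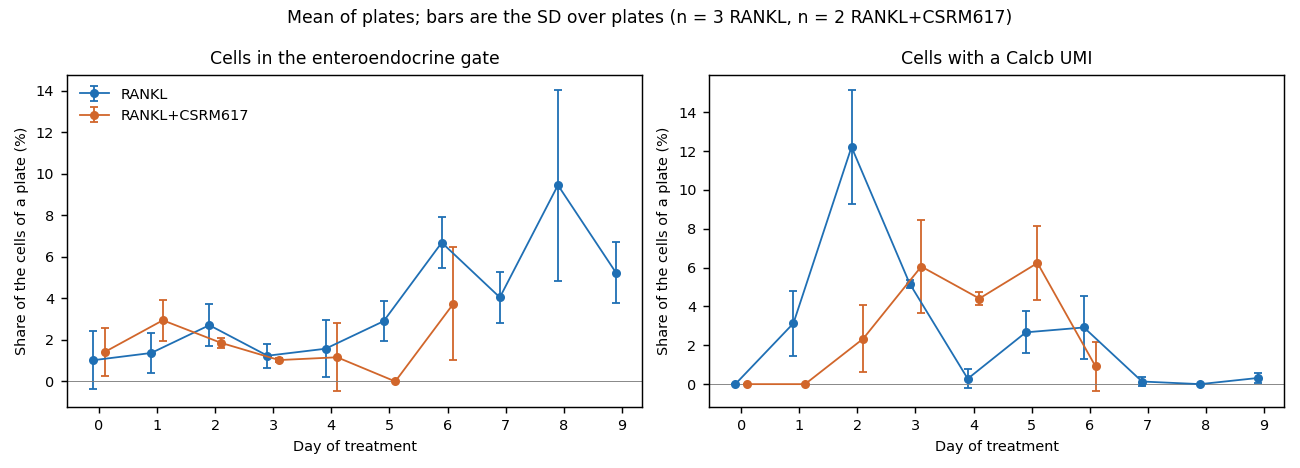
Share of the cells of a plate in the enteroendocrine gate (left) and with a Calcb UMI (right), in percent, by day of treatment; points are means of plates and bars are the SD (n = 3 RANKL and n = 2 RANKL+CSRM617 plates a day). The gated RANKL share is highest on day 8 at 9.45%, whereas the Calcb share peaks on day 2 at 12.2% in the RANKL arm and reaches 6.06% on day 3 and 6.24% on day 5 with the inhibitor; the gate uses fewer genes in the RANKL+CSRM617 arm.

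Cck and Gip encode cholecystokinin and the glucose-dependent insulinotropic polypeptide, hormones released after a meal. Cck gave 4 UMIs, all in 2 gated cells of RANKL day 8 replicate 2. Gip gave 1 UMI each on day 1 replicate 1, day 2 replicate 3 and day 3 replicate 1. Neither could be tested.

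Reg4 encodes a secreted C-type lectin known from enteroendocrine and deep crypt secretory cells. It gave the most UMIs of the 10 genes, which CEL-Seq2 counts at the 3′ end, with 1754 in 365 RANKL cells. The plates held 19, 18 and 29 UMIs on day 0, 103, 170 and 323 on day 2, 64, 0 and 85 on day 3, 0, 227 and 1 on day 4, 4, 110 and 28 on day 5, 17, 17 and 25 on day 6 and 16, 30 and 129 on day 9. Replicate 2 of day 0 was a small plate of 26 cells, and its 18 UMIs were 115 CPM, above the 92.8 and 111 CPM of replicates 1 and 2 of day 2. A single plate led on days 4, 5 and 9, and 201 UMIs lay in a single cell. The days differed in edgeR (adjusted p = 0.00415) and not in DESeq2 (0.331), and the log2 changes of 0.15, −0.79 and 1.02 on days 3, 6 and 9 did not pass. The arms differed by −0.09 on days 1 to 3 (edgeR adjusted p = 0.941) and by −0.19 on days 4 to 6 (0.937).

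Reg4 UMIs lay mostly outside the gate, 34.8% inside it in the RANKL arm. A Reg4 UMI was found in 11.4% of gated cells, 5.32% of cells outside the gate, 39.8% of goblet rule cells (86 of 216) and 50% of Paneth rule cells (55 of 110), and after thinning in 8.37%, 2.18%, 26.9% and 37.3%. The gated and goblet rule medians were 2679 and 3333.5 UMIs and the Paneth rule median 3474. These shares pool days, and the classes differ in their days. Reg4 was found in 1 of 10, 10 of 19 and 2 of 10 gated cells on days 1, 2 and 3. On days 6, 7, 8 and 9 it was found in 2 of 52, 1 of 32, 6 of 77 and 4 of 34. In the other arm the goblet and Paneth shares were 35.3% and 60%. The goblet and Paneth rules share 75 cells, of which 57.3% held Reg4, against 30.5% of the 141 cells of the goblet rule alone and 34.3% of the 35 of the Paneth rule alone. In the RANKL arm Sct was found in 6.46% of gated cells and 10.6% of goblet rule cells. All 12 Sct-positive Paneth rule cells (10.9%) also met the goblet rule, and none of the 35 that met the Paneth rule alone held Sct (up to 8.57%). In the RANKL arm 32 of 128 Sct-positive cells held Reg4 (25%, against 5.57% of all cells). In the RANKL+CSRM617 arm the order of the Sct shares, with days pooled, was the other way. Sct was found there in 32.3% of gated cells (10 of 31), 22.4% of goblet rule cells and 25.5% of Paneth rule cells. In the RANKL arm the gated share differed by day. Sct was found in 4 of 10, 5 of 19 and 2 of 10 gated cells on days 1, 2 and 3. On days 6, 7, 8 and 9 it was found in 2 of 52, 1 of 32, 1 of 77 and 1 of 34. The arms differ in the days of their gated cells and in gate genes, so the 2 orders are not comparable.

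In the RANKL arm 88.9% of Ghrl, 82.4% of Tph1, 80.2% of Chgb, 56.9% of Cpe and 47.7% of Chga UMIs lay in gated cells, against 29.1% of Sct UMIs and none of the 310 Calcb UMIs. For Ghrl this rested on few cells, since 24 of its 32 positive cells lay outside the gate, and in the RANKL+CSRM617 arm 15.4% of its 13 UMIs lay in gated cells. A Cpe UMI was found in 109 of 263 gated cells (41.4%, 27% after thinning) against 2.72% of cells outside the gate (0.588%), although the latter were deeper, at a median of 4775 against 2679 UMIs. For Chgb the shares were 15.2% against 0.429%, for Tph1 11.8% against 0.572%, for Chga 5.32% against 0.318% and for Ghrl 3.04% against 0.381%. After thinning they were 10.3% against 0.111%, 8.75% against 0.111%, 3.04% against 0.0318% and 2.66% against 0.0635%. No goblet or Paneth rule cell held Ghrl, which allows up to 1.39% and 2.73%. In the RANKL+CSRM617 arm the gated shares were 64.5% for Cpe (20 of 31 cells), 29% for Tph1, 22.6% for Chgb, 9.68% for Chga and 6.45% for Ghrl.

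Cells with 1 to 9 Ghrl UMIs made up 1.62% of the other cells on the 5 RANKL plates that held a cell of 10 or more Ghrl UMIs, and 0.132% on the other 25 plates. The same shares were 1.39% and 0.637% for Tph1, 1.73% and 0.575% for Chgb and 6.30% and 2.27% for Reg4. The source of these low counts was not tested. Of the 263 gated RANKL cells, 123 held no UMI of the 10 genes, 79 held 1 of the genes, 30 held 2, 18 held 3 and the rest held more.

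In the RANKL arm 20 cells held 10 or more UMIs of Ghrl, Tph1, Chga or Chgb, 5 of them rich in Ghrl and the other 15 in Tph1 or Chgb. None of the 5 cells rich in Ghrl held a Tph1 UMI, while 2 of the 5 held Chgb and 3 held Reg4. Of the 9 cells rich in Tph1, 8 held Chgb, and all 10 rich in Chgb held Tph1. Cpe was present in 16 of the 20 and Calcb in 1. In the other arm 7 cells passed, none rich in Ghrl, 6 rich in Tph1 or Chgb and 1 in Chga alone. Of these, 3 of 4 rich in Tph1 held Chgb, 3 of 3 rich in Chgb held Tph1 and 6 of 7 held Cpe. Over all RANKL cells, 26 of the 67 Tph1-positive cells held Chgb (38.8%, against 1.02% of all cells), 2 held Ghrl, and 36 of the 67 Chgb-positive cells held Cpe (53.7%). These are counts of cells, with no test.

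**Figure D4:**
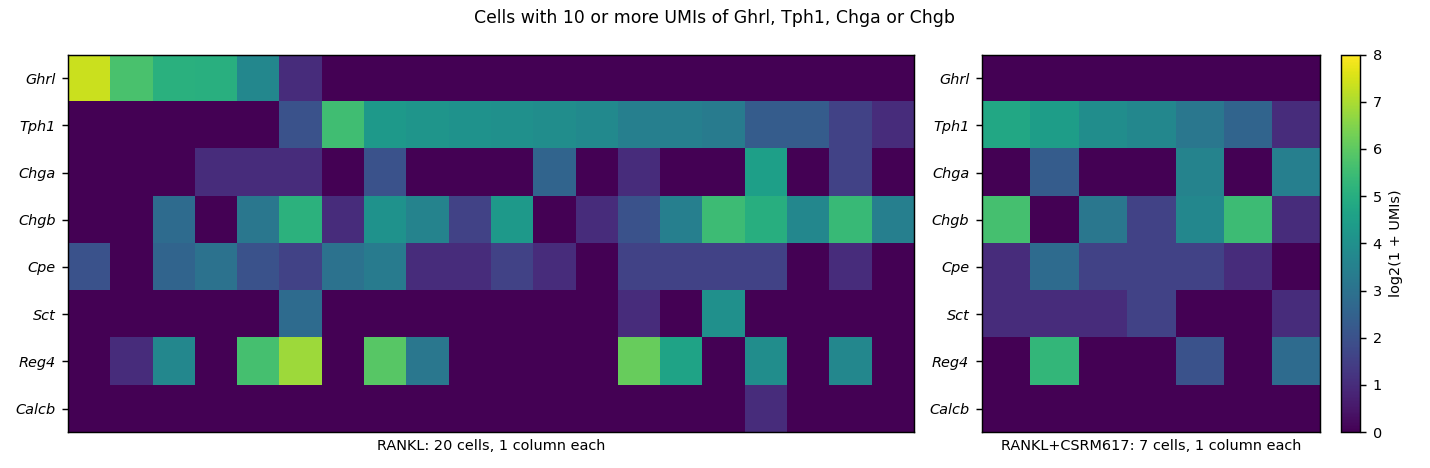
UMIs of 8 genes (rows) in each cell with 10 or more UMIs of Ghrl, Tph1, Chga or Chgb, 1 column per cell, for the RANKL arm (left, 20 cells) and the RANKL+CSRM617 arm (right, 7 cells); color is log2(1 + UMIs). The 5 Ghrl-rich RANKL columns are dark in the Tph1 row, and 2 of the 5 carry Chgb. The 10 Chgb-rich RANKL columns all carry Tph1, and 1 column of the RANKL arm carries Calcb.

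Across the 30 RANKL plates the genes most alike a member were given by Pearson's r of log2 CPM, as a description of plates that share days and depth. Tph1 was most like Pappa2 (0.82), Scn3a (0.81) and Chgb (0.76), and Chgb most like Tph1 (0.76), Scn3a (0.75) and Pappa2 (0.67). Cpe was most like Ica1 (0.85), Ceacam10 (0.84) and Fxyd3 (0.84), and Calcb most like Pmp22 (0.88), Pglyrp2 (0.88) and Gjb2 (0.87). Sct was most like Khdc1a (0.76), Smad7 (0.76) and Cyp1a1 (0.74). For Ghrl and Reg4 no gene exceeded 0.58 and 0.63. Calcb and Tph1 had an r of 0.01 over the same plates.

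Other genes of the pathway came from written lists, described by counts. Among 16 enteroendocrine transcription factors 7 were tested in the RANKL arm, 6 of them also gate genes. None passed on day 3 (median −0.93). On day 6, 5 of the 7 were higher, where 18.9% of all genes were, including Insm1 (log2 change 4.08) and Rfx6 (3.38). The median of the 7 was 2.93 against 0.04 over all genes. On day 9, 4 were higher, where 18% of all genes were, with a median of 3.15 against 0.03. A factor that passed the filter on low counts only through days on which it was high had to lie higher on them. These counts and medians are therefore no sign of anything particular to the list. Between the arms 6 were tested and 1 passed, Fev, a factor of serotonin cells. In either direction 28.6% of all genes passed on days 1 to 3 and 22.4% on days 4 to 6. Fev was higher with the inhibitor on days 1 to 3 (3.14, edgeR adjusted p = 0.0425) and days 4 to 6 (4.33, 0.0341). It had no UMI on RANKL days 3, 4 and 5, so both fitted sizes depend on the prior count. The median of the 6 was 0.68 on days 1 to 3 and −1.61 on days 4 to 6. Of 15 other hormones 1 was tested, Nucb2, and it was not called.

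Of 15 exocytosis and amine genes 10 were tested in the RANKL arm, and they moved in both directions. On day 6 Cplx2, a regulator of vesicle fusion (3.1), and Syt7, a calcium sensor of exocytosis (1.51), were higher, while Gch1, which starts the synthesis of the cofactor of tryptophan hydroxylase (−3.23), and Ddc, the decarboxylase that completes serotonin synthesis (−0.75), were lower. On day 9 Cplx2 (3.13) and the vesicular amine transporter Slc18a1 (1.50) were higher, and Gch1 (−2.12) and Ddc (−1.23) lower. Between the arms 11 of the 15 were tested, where 28.6% of all genes passed in either direction on days 1 to 3 and 22.4% on days 4 to 6. With the inhibitor Ddc (1.10), Gch1 (0.91) and Slc18a2 (0.82) were higher than in the RANKL arm on days 1 to 3. On days 4 to 6 Gch1 (1.84) and Slc18a1 (1.48) were higher and Rab3d (−1.06) was lower. Of 14 processing genes 2 were tested: Pam, which amidates peptide hormones, was lower in the inhibitor arm on days 1 to 3 (−3.53) and days 4 to 6 (−2.42), and by a like amount on day 0 (−3.41). Of 9 nutrient receptors 2 were tested, and Ffar4, a receptor for long-chain fatty acids, was higher on day 6 (1.75) and day 9 (1.65) and lower with the inhibitor on days 4 to 6 (−2.87).

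Within gated RANKL cells, plates of days 7 to 9 were compared with plates of days 4 to 6. None of 873 genes (0%) passed in edgeR or in DESeq2, while 59 and 50 had an unadjusted p under 0.05. Tph1 differed by −0.05 ± 0.76 and Cpe by 0.25 ± 0.42 on the log2 scale (edgeR adjusted p = 0.999 and 0.971). These were the 2 members with enough counts.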

How the data were processed

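Per the labels, viable cells were sorted on scatter, 1 per well of a 384-well plate, and sequenced with a CEL-Seq2 variant. The deposited tables give raw UMI counts for each gene in each well, without normalization by the authors. Seurat 3.1.5, kallisto, bustools and GRCm38 appear in the submitters' processing notes, in no stated role. The 10 genes and all lists were chosen with earlier results of these data known.

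The UMI minimum for a well was 1000, and counts were summed per plate. No doublet caller was run, since wells were sorted as single cells. Well positions recur between plates (384 positions are each used on more than 1 RANKL plate), because every plate has the same layout, and none recurs within a plate. TMM scaling and quasi-likelihood tests came from edgeR 4.0.16 (filterByExpr, R 4.3.3), with Benjamini-Hochberg adjustment over all genes at 0.05. A single fit held every day of an arm, or days 0 to 6 of both. DESeq2 1.42.0 was an alternative. The comparison of arms tested 8766 genes found in both tables. Ratios of summed counts are scaled by the summed TMM library sizes of each group. Folds against a group with no UMI use a floor of 3 counts for that group. Intervals are exact 95% intervals and cover counting error only. Thinned values draw 1000 UMIs per cell. Genes were named by a rule: the 10 genes, up to 4 called genes of largest change per list, and the 3 most alike per tested member. Programs were tested on simulated data. Left out were wells under 1000 UMIs, and the deposited normalized tables, since the count tables of the same wells were used. Alternatives were another scaling, no filter, other UMI minimums, thinning, no most abundant gene, a replicate block, only the groups compared and 1 plate left out. Those without the cell of most UMIs, without plates of fewer than 50 cells, with crossed numbers and, for a Ghrl ratio, without its highest plate were chosen after seeing the data.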

Additional observations from a re-analysis of the deposited data

Results flagged for a closer look

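The change of Tph1 from day 0 to days 4 to 6 differed between the arms, tested as the difference of the 2 changes (RANKL+CSRM617 minus RANKL, log2 10.35 ± 3.07, edgeR adjusted p = 0.0366). With the inhibitor both day 0 plates held no Tph1 UMI, so the fitted size depends on the prior count, and the RANKL plates of day 0 held 19, 0 and 1. It was the member called among 8 tested, where 3.14% of genes were called higher and 6.34% in either direction, and the median of all genes was −0.12. The call was lost without RANKL replicate 1 of day 0 (7.19, adjusted p = 0.546), without RANKL+CSRM617 replicate 1 of day 4 (7.59, adjusted p = 1.000), and without replicate 1 (0.131) or 2 (0.0934) of day 0, replicate 2 of day 5 (0.0846) or replicate 1 of day 6 (0.0851) of that arm. It was also lost in cells of 2000 or more UMIs (3.80, adjusted p = 1.000). The same contrast gave 8.87 ± 3.17 for Chga (adjusted p = 0.0905) and 9.58 for Chgb (0.277), with edgeR in each case.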

How the results depend on the processing

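After thinning each cell to 1000 UMIs, genes called fell to 2670 of 5856 over the RANKL days, 748 of 2043, 1684 of 3828 and 1607 of 3638 on days 3, 6 and 9, 459 of 1310 over the RANKL+CSRM617 days, 453 of 1167 and 211 of 488 on its days 3 and 6, and 1215 of 2506, 976 of 1962, 359 of 861 and 189 of 556 between the arms (days 1 to 3, days 4 to 6, day 0 and change). Members called then numbered 4, 0, 0 (RANKL days, day 3, day 6), 2 and 0 (RANKL+CSRM617 days, day 3), 0 (arms, days 1 to 3) and 2 (days 4 to 6), against 7, 1, 2, 5, 1, 1 and 1. In cells of 2000 or more UMIs members called were 2 over the RANKL+CSRM617 days, 1 on its day 6, 2, 0 and 0 between the arms (days 1 to 3, days 4 to 6, change), and Tph1 on days 4 to 6 turned to −0.25; the cause was not tested. With all wells 3 members were called on days 4 to 6 and 2 for the change. Without the filter on low counts 3 were called on RANKL day 3, 4 on day 9, and 14 genes with 2 members in gated cells. DESeq2 called 3 over the RANKL days, 2 over the RANKL+CSRM617 days and 4 between the arms on days 4 to 6. With only the groups compared, 1 was called on RANKL day 6 and 0 on RANKL+CSRM617 days 3 and 6 and for the change.

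Leaving out 1 plate gave 5635 to 6165 genes and 7 to 8 members over the RANKL days, 1554 to 1934 and 1 to 2 on day 3, 3115 to 3749 and 2 to 2 on day 6, 2923 to 3586 and 1 to 2 on day 9, 1000 to 1396 and 4 to 5 over the RANKL+CSRM617 days, 527 to 825 and 0 to 1 on day 3, 214 to 377 and 1 to 2 on day 6, 1918 to 2487 and 0 to 1 between arms on days 1 to 3, 1274 to 1949 and 0 to 2 on days 4 to 6, 445 to 818 and 0 to 0 on day 0, 294 to 601 and 0 to 1 for the change, and 0 genes in gated cells. Leaving out plates of fewer than 50 cells ended no member call of the RANKL arm; RANKL+CSRM617 lost both day 4 plates, so that arms on days 4 to 6 and the change could not be fitted.

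The replicate numbers did not pair the plates (correlations of deviations from −0.176 to 0.105). With a replicate block 1502 genes were called between arms on days 1 to 3 and 0 members for the change (Tph1 adjusted p = 0.0543); Cpe over the RANKL+CSRM617 days had an adjusted p of 0.0628. The crossed block on RANKL+CSRM617 day 3 called 1110 genes and 1 member, against 1076 and 1 with the numbers as given.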
